A study of Mus musculus with 6 samples.

Results

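10 genes of the splenic marginal zone B cell programme and of the Notch2 pathway were examined across RNA sequencing libraries of mouse splenic B cells. They were chosen by name, and their 10 symbols matched 11 of the 35275 rows of the deposited expression table, because Cr2 stands in it in 2 rows. The groups were wild-type (WT) mice and CD40LΔ5 mice, which carry an altered CD40 ligand whose change the labels do not describe, with 3 libraries labelled for each. All mice were C57BL/6, 6 to 8 weeks old when they received sheep red blood cells (SRBC), an antigen that drives germinal centre responses with T cell help. B cells were taken from the spleen with a magnetic pan-B kit on day 8 after the injection, so there were no uninjected controls in this comparison. Nothing in the labels ties a library to its own animal, so p-values measure the spread between these 6 libraries, which may be technical. In bulk libraries such as these, fewer cells of a type and less RNA per cell cannot be told apart.

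Marginal zone B cells are a resting B cell population at the border of the splenic white pulp that responds early to blood-borne antigen. Their formation depends on the receptor Notch2, which is engaged by the ligand Delta-like 1 on stromal cells of the spleen, cut by ADAM10 and γ-secretase, and then acts in the nucleus with RBPJ and Mastermind proteins. Hes1, Hes5 and Dtx1 are classical target genes of Notch signalling, and high complement receptor CD21 and CD1d are the surface markers by which marginal zone B cells are usually separated from follicular B cells.

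The libraries were not placed in the same groups by every deposited source, and this bears on each direction given here. The MUT column of the authors' deposited table of means averages 2 libraries labelled WT (replicates 1 and 2) with 1 labelled CD40LΔ5 (replicate 2), and matches that average to within 3.33e-08 FPKM (reads scaled by gene length and library size). Its WT column equals the mean of the other libraries, CD40LΔ5 replicates 1 and 3 and WT replicate 3. They are called here the table-MUT and the table-WT libraries. Only WT replicate 3 and CD40LΔ5 replicate 2, 2 of 6 libraries, are placed alike by both sources. Each gene of the examined set is therefore given under both groupings, and some of the other genes named are given under a single grouping. The sign of a difference could turn under the other grouping. Both groupings are built from the same 6 libraries and are not independent of each other. A library is always called by its label. Cd40lg, which encodes CD40 ligand and is a T cell gene, was covered by 4 to 17 reads per library. Its FPKM was 0.533, 0.428 and 0.483 in the table-MUT libraries (WT 1, WT 2 and CD40LΔ5 2) and 0.203, 0.118 and 0.144 in the table-WT libraries (WT 3, CD40LΔ5 1 and CD40LΔ5 3), so it separated by the table and not by the labels. What the Δ5 change does to this transcript is not given in the sources used here, so its level checks neither grouping. Reads on genes numbered 24320080 to 27866611 per library, and immunoglobulin genes took 2.20% to 8.59% of them. The pan-B cell list of 8 genes, with Cd79a and Ms4a1, summed to between 4390 and 5073 FPKM in the 6 libraries, while the 9 follicular dendritic cell and stroma genes found summed to at most 4.19 FPKM.

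All 10 genes were detected in every library, at levels that spanned from Cr2 to Hes5. Over the 6 libraries Cr2 averaged 118 ± 21.3 FPKM (SD, n = 6), followed by Dtx1 at 85.6 ± 13.8, Notch2 at 40.4 ± 5.39, Rasgef1b at 32.1 ± 4.46, Cd1d1 at 26.6 ± 7.76 and Cd36 at 25.01 ± 5.44 FPKM. Hes1 stood at 20.5 ± 3.07 FPKM, Asb2 at 7.47 ± 3.09, Myof at 7.31 ± 1.90 and Hes5 at 1.64 ± 0.276 FPKM. Cr2 exceeded Dtx1 in 6 of 6 libraries and Notch2 exceeded Rasgef1b in 6 of 6, although the ranges of both pairs overlapped across libraries. The order was not fixed between Rasgef1b and Cd1d1 (4 of 6 libraries), between Cd36 and Hes1 (5 of 6) and between Asb2 and Myof (3 of 6), and Cd1d1 exceeded Cd36 in 2 of 6 libraries although its mean was higher. The range of Hes1 lay entirely above that of Asb2, and the range of Myof entirely above that of Hes5. The spread over the 6 libraries was largest for Asb2, with a coefficient of variation of 41.4%, then for Cd1d1 (29.2%), Myof (26.0%) and Cd36 (21.8%), and smallest for Notch2 (13.4%). The median coefficient of variation of all 11252 tested genes was 11.3%.

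**Figure D1:**
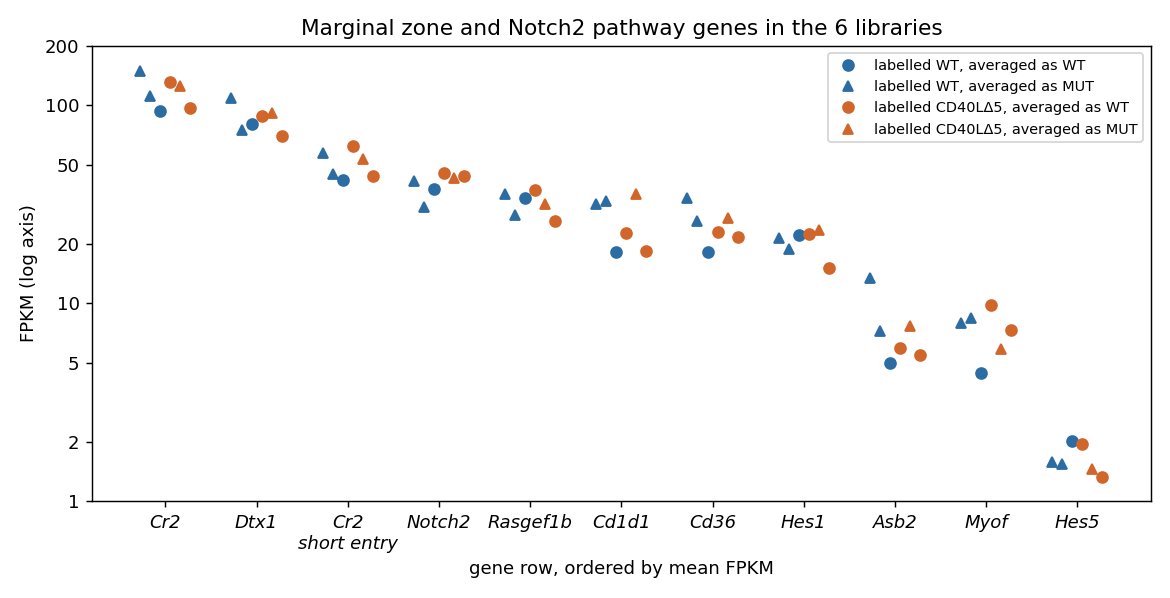
FPKM (log axis) of the 11 rows in the 6 libraries, 1 symbol per library, ordered by mean level; colour gives the label and symbol shape the column of the deposited means in which the library was averaged. Triangles (averaged as MUT) all lie above circles (averaged as WT) for Cd1d1, Cd36 and Asb2, and orange symbols (labelled CD40LΔ5) all lie above blue ones for Notch2.

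By the labels, none of the 11 rows passed the test, with 0% of all genes called: the limma adjusted p was 1 for each, and no row had an unadjusted p under 0.05, where 1.24% of all genes did (0.915% higher and 0.320% lower in CD40LΔ5). By the sets of the table none of the 11 passed either, with 0.0267% of all genes called. There, 3 rows (Cd1d1, Cd36 and Asb2) had an unadjusted p under 0.05 with higher values in the table-MUT libraries, where 13.0% of all genes did, 9.39% higher and 3.61% lower. With median-ratio scaling that split of all genes was 846 higher and 703 lower, against 1057 and 406 as reported. With the trend over gene length removed from each library it was 736 higher and 811 lower. limma voom on reads recovered from the FPKM values called none of the 11 under either grouping. The genes were chosen with earlier results of these data known, Cd1d1 among them, so these counts are a description.

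Notch2, the receptor itself (ENSMUSG00000027878, chromosome 3, 98013538 to 98150367, plus strand), was the member whose labelled groups did not overlap. It measured 41.4, 30.7 and 38.0 FPKM in WT replicates 1, 2 and 3 and 45.3, 43.1 and 43.8 FPKM in CD40LΔ5 replicates 1, 2 and 3. The libraries labelled CD40LΔ5 all lay above those labelled WT, which was so for 1 of the 11 rows and for 2.98% of all tested genes (4.29% did not overlap in either direction, 1.32% with CD40LΔ5 lower). The means were 44.1 ± 1.15 FPKM in CD40LΔ5 and 36.7 ± 5.50 FPKM in WT (SD, n = 3), and the log2 difference was 0.27 ± 0.12 SE (95% interval -0.01 to 0.55, limma adjusted p = 1). Notch2 averaged 38.4 ± 6.75 FPKM in table-MUT against 42.4 ± 3.90 FPKM in table-WT libraries, a log2 difference of -0.15 ± 0.14 SE (limma adjusted p = 0.637). The row of Notch2 has a length of 10506 bases, and length moved with the labelled groups: of 411 tested genes of at least 8000 bases, a limit set after the values were seen, 94.6% had a higher mean log2 value in CD40LΔ5 and in 25.5% the 3 CD40LΔ5 libraries all lay higher. Their median log2 difference was 0.15, against 0.01 over all tested genes. With the trend over gene length removed from each library, the log2 difference of Notch2 by the labels was 0.11 ± 0.10 SE. The genes whose values over the 6 libraries were most like those of Notch2, among 7398 compared, were Sptbn1, which encodes a spectrin of the membrane skeleton, with a Pearson r of 0.998 and Ssh2 with 0.995.

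The other receptors and the ligands were low in these libraries. Notch1 measured 3.22, 2.70 and 2.98 FPKM in WT replicates 1, 2 and 3 and 3.42, 3.69 and 3.21 FPKM in CD40LΔ5 replicates 1, 2 and 3, so that Notch2 stood above it in every library. Notch4 averaged 0.295 FPKM and Notch3 0.0527 FPKM. All 5 ligand genes lay under the level for testing, a mean of 1 FPKM, from Dll4 at 0.0424 to Dll1 at 0.628 FPKM on average. Dll1, the ligand that stromal cells present to marginal zone precursors, measured 0.547, 0.896 and 0.587 FPKM in the libraries labelled WT and 0.524, 0.753 and 0.461 FPKM in those labelled CD40LΔ5.

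The Notch target genes Hes1, Hes5 and Dtx1 showed overlapping groups under both groupings. Hes1 (ENSMUSG00000022528, chromosome 16, 30064384 to 30067796, plus strand), a basic helix-loop-helix repressor, measured 21.3, 18.8 and 22.0 FPKM in WT replicates 1, 2 and 3 and 22.3, 23.4 and 15.1 FPKM in CD40LΔ5 replicates 1, 2 and 3. The lowest and the highest value were both found in libraries labelled CD40LΔ5. Its log2 difference was -0.05 ± 0.17 SE by the labels (95% interval -0.46 to 0.35) and 0.11 ± 0.16 SE by the table sets (-0.27 to 0.49). Hes5 (ENSMUSG00000048001, chromosome 4, 154960923 to 154962371, plus strand), a repressor of the same family, measured 1.57, 1.55 and 2.02 FPKM in WT and 1.94, 1.45 and 1.32 FPKM in CD40LΔ5, replicates 1, 2 and 3 in order. Each library gave between 46 and 71 Hes5 reads. The exact 95% Poisson interval of the highest value, 1.58 to 2.55 FPKM, overlaps that of the lowest, 0.973 to 1.76 FPKM, counting error alone considered. Such an overlap does not show that the values agree within counting error, which was not tested. The log2 difference of Hes5 was -0.08 ± 0.15 SE by the labels and -0.12 ± 0.14 SE by the table sets. Hes1 exceeded Hes5 between 10.9-fold and 16.1-fold in single libraries, and CD40LΔ5 replicate 2 held the highest ratio.

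Dtx1 (ENSMUSG00000029603, chromosome 5, 120680202 to 120711927, minus strand) encodes Deltex1, a ubiquitin ligase that binds the intracellular part of Notch. It measured 109, 75.4 and 80.2 FPKM in WT replicates 1, 2 and 3 and 88.0, 91.3 and 70.0 FPKM in CD40LΔ5 replicates 1, 2 and 3. WT replicate 1 stood highest and CD40LΔ5 replicate 3 lowest, and the labelled groups overlapped. The means were 83.1 ± 11.5 FPKM in CD40LΔ5 and 88.2 ± 18.0 FPKM in WT (SD, n = 3), a log2 difference of -0.08 ± 0.17 SE (95% interval -0.48 to 0.33). Between the table sets it was 0.20 ± 0.15 SE (-0.16 to 0.55, limma adjusted p = 0.559). Dtx1 ran with the sphingosine-1-phosphate receptor S1pr1, which keeps B cells at the marginal zone: S1pr1 measured 119 FPKM in WT replicate 1 and 86.6 to 107 FPKM in the other libraries, and its Pearson r with Dtx1 over the 6 libraries was 0.993, after Grap at 0.995. The ratio of Dtx1 to Notch2 ran from 1.60 in CD40LΔ5 replicate 3 to 2.63 in WT replicate 1.

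Promoter sequences of 8 of the 10 genes were available from RefSeq (GRCm38.p6), in 9 windows of 300 bases from 250 before to 50 after an annotated start. They were searched on both strands for TGGGAA, the core that RBPJ recognises, whose complement reads TTCCCA. Of the 9 windows 3 held it, those of Hes5, Cr2 and Cd36, where 25.6% of all 32851 promoter windows did. Hes5 held it in 2 places, 226 and 82 bases before the start, which 3.79% of all windows matched with 2 or more. The longer form GTGGGAA, which contains the first, was found in the windows of Hes5 and Cr2, and in 6.38% of all windows. The 3 windows that hold the core are shown because they belong to the lowest member, to the highest and to a member whose table sets did not overlap. They run 5′ to 3′ on the strand of the gene with the matches in capitals, Hes5 from chr4:154960673-154960972 (plus strand), Cr2 from chr1:195176670-195176969 (minus strand) and Cd36 from chr5:17835847-17836146 (minus strand).
Hes5: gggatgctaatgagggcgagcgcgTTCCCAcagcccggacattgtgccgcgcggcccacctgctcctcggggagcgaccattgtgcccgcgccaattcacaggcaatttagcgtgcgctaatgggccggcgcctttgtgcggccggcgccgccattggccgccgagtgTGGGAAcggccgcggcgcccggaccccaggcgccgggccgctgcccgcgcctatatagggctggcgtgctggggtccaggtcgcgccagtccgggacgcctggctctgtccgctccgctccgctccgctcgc
Cr2: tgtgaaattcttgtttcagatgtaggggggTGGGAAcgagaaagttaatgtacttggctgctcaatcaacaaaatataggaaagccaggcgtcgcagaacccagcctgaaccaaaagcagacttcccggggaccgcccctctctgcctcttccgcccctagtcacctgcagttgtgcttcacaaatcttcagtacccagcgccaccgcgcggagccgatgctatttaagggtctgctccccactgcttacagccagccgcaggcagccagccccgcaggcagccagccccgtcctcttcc
Cd36: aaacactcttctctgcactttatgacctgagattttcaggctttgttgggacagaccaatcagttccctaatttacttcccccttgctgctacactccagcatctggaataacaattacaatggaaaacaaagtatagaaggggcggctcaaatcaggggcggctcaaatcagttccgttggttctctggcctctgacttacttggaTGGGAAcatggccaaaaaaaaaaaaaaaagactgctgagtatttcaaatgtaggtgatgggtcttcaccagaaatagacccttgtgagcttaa
The match of Cr2 starts 220 and that of Cd36 43 bases before the start. The Cd36 window lies inside the span of its row, 17781690 to 17888959, at an internal start. The 5′ end of that row was not among the windows searched. A match is a description of the letters and not a bound site, and the windows of Notch2, Dtx1, Asb2, Myof and Rasgef1b held none.

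Among the surface markers, Cr2 was the most abundant member. It encodes the complement receptors CD21 and CD35 through alternative splicing (ENSMUSG00000026616, chromosome 1, 195136811 to 195176715, minus strand). It measured 149.7, 112 and 94.2 FPKM in WT replicates 1, 2 and 3 and 131, 126 and 97.5 FPKM in CD40LΔ5 replicates 1, 2 and 3. Replicate 3 was the lowest library of either label, and the groups overlapped. The means were 118.1 ± 18.0 FPKM in CD40LΔ5 and 118.5 ± 28.4 FPKM in WT (SD, n = 3), with a log2 difference of 0.01 ± 0.20 SE (95% interval -0.46 to 0.48). Grouped by the table, Cr2 averaged 129 ± 19.2 FPKM in table-MUT against 107.5 ± 20.3 FPKM in table-WT libraries, a log2 difference of 0.27 ± 0.16 SE (-0.11 to 0.65, limma adjusted p = 0.481). A second row named Cr2 (ENSMUSG00000094924, 195165745 to 195171168, length 1044 bases) lies within the span of the first on the same strand. It measured 57.7, 45.1 and 41.8 FPKM in WT and 62.1, 53.4 and 44.2 FPKM in CD40LΔ5, replicates 1, 2 and 3 in order. Its log2 difference was 0.14 ± 0.17 SE by the labels and 0.09 ± 0.17 SE between the table sets. Its ratio to the long row ran from 0.386 in WT replicate 1 to 0.474 in CD40LΔ5 replicate 1. How reads were divided between the overlapping rows is not given in the sources used here, so both are uncertain to that extent.

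Cd1d1, which encodes the CD1d molecule that presents lipids to natural killer T cells (ENSMUSG00000028076, chromosome 3, 86995834 to 86999441, minus strand), overlapped by the labels and did not overlap between the table sets. It measured 31.9, 32.8 and 18.1 FPKM in WT replicates 1, 2 and 3 and 22.6, 35.6 and 18.5 FPKM in CD40LΔ5 replicates 1, 2 and 3. The 3 table-MUT libraries lay between 31.9 and 35.6 FPKM and the 3 table-WT libraries between 18.1 and 22.6 FPKM. The log2 difference of Cd1d1 between the table sets was 0.74 ± 0.10 SE (95% interval 0.49 to 0.98, 1.69-fold by the means), with an unadjusted p that ranked 13th of 11252 genes and a limma adjusted p of 0.149. Without CD40LΔ5 replicate 1 the log2 difference was 0.83 with a limma adjusted p of 0.0491, and with array weights it was 0.82 with 0.0465. Over all alternatives run for it the log2 difference lay between 0.65 and 0.83. Cd1d1 has a near-identical neighbouring copy, Cd1d2, and how reads common to both were counted is not stated, so its level is uncertain to that extent. By the labels it was -0.11 ± 0.30 SE (-0.83 to 0.60). Groups that did not overlap with higher values in MUT were found for 3 of the 11 rows and for 12.1% of all tested genes, and with lower values for none of the rows and 4.79% of genes (16.9% in either direction). Length moved with the table sets too. Of 3579 tested genes under 2000 bases, 71.8% had a higher mean log2 value in table-MUT libraries, where 62% of all genes did. In 18% of them the 3 table-MUT libraries all lay higher. Of genes of at least 8000 bases the shares were 43.6% and 2.19%. The row of Cd1d1 has a length of 1946 bases. With the length trend removed from each library, its log2 difference by the table sets was 0.65 ± 0.08 SE.

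Cd36 and Asb2 were the other rows of that kind. Cd36, a scavenger and fatty acid receptor carried by marginal zone B cells and also by macrophages, erythroid cells and platelets (ENSMUSG00000002944, chromosome 5, 17781690 to 17888959, minus strand), measured 34.0, 26.2 and 18.2 FPKM in WT replicates 1, 2 and 3 and 22.9, 27.1 and 21.6 FPKM in CD40LΔ5 replicates 1, 2 and 3. WT replicate 1 was the highest and WT replicate 3 the lowest, so the labelled WT libraries enclosed all those labelled CD40LΔ5. The log2 difference was 0.45 ± 0.13 SE by the table sets (29.1 ± 4.26 against 20.9 ± 2.42 FPKM, limma adjusted p = 0.343) and -0.09 ± 0.22 SE by the labels. Asb2, the substrate-binding subunit of a cullin ubiquitin ligase (ENSMUSG00000021200, chromosome 12, 103321142 to 103356001, minus strand), measured 13.4, 7.23 and 4.99 FPKM in WT and 5.98, 7.72 and 5.47 FPKM in CD40LΔ5, replicates 1, 2 and 3 in order. WT replicate 1 stood well above the rest. The log2 difference by the table sets was 0.65 ± 0.21 SE (limma adjusted p = 0.354), and without WT replicate 1 it was 0.39. By the labels it was -0.28 ± 0.31 SE, and without WT replicate 1 it turned to 0.06.

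Myof and Rasgef1b overlapped under both groupings. Myof, a membrane repair protein of the ferlin family (ENSMUSG00000048612, chromosome 19, 37899036 to 38043577, minus strand), measured 7.95, 8.43 and 4.47 FPKM in WT replicates 1, 2 and 3 and 9.80, 5.87 and 7.35 FPKM in CD40LΔ5 replicates 1, 2 and 3. The highest and lowest libraries, CD40LΔ5 replicate 1 and WT replicate 3, were both averaged as WT in the table. Its log2 difference was 0.14 ± 0.25 SE by the labels and 0.08 ± 0.25 SE by the table sets, with intervals of -0.46 to 0.75 and -0.52 to 0.67. Rasgef1b, an exchange factor for small GTPases (ENSMUSG00000029333, chromosome 5, 99217426 to 99252927, minus strand), measured 35.6, 27.9 and 34.1 FPKM in WT and 37.3, 31.6 and 25.9 FPKM in CD40LΔ5, replicates 1, 2 and 3 in order. Its log2 differences of -0.05 ± 0.15 SE by the labels and -0.02 ± 0.15 SE by the table sets were the nearest to 0 when both groupings are considered.

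**Figure D2:**
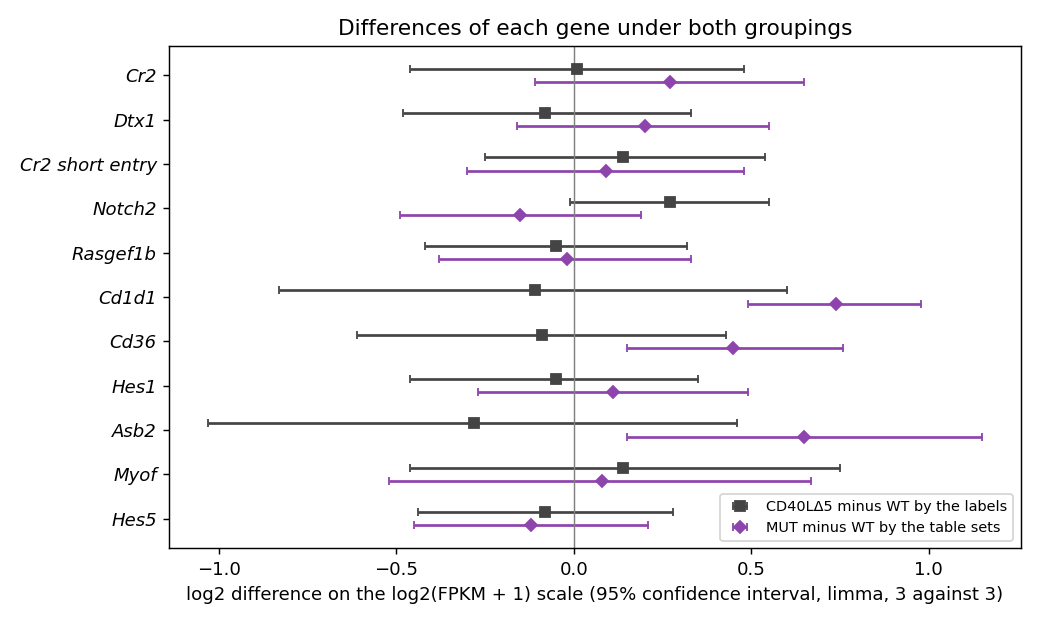
Log2 difference on the log2(FPKM + 1) scale of each row by the labels (CD40LΔ5 minus WT, squares) and by the table sets (MUT minus WT, diamonds), with limma 95% confidence intervals, 3 libraries against 3. The intervals include 0 for all 11 rows by the labels and exclude it for Cd1d1, Cd36 and Asb2 by the table sets, before adjustment for the number of genes.

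The members did not share one order of libraries. WT replicate 1 was the highest library for 4 of the 11 rows, CD40LΔ5 replicate 1 for 4, CD40LΔ5 replicate 2 for 2 and WT replicate 3 for 1. WT replicate 3 was the lowest for 6 rows and CD40LΔ5 replicate 3 for 4. For Cd1d1 the genes most like it over the 6 libraries were Clcc1, N4bp2l1 and Dhrs11 (Pearson r of 0.995, 0.994 and 0.990), and for Cr2 they were Wdr55, Ubac1 and Galnt11 (0.996, 0.982 and 0.981). For Cd36 they were Il9r, Ifrd1 and Hexa (0.982, 0.981 and 0.980) and for Asb2 Tada1, Hexa and Rps4x (0.989, 0.987 and 0.986). Il9r, the receptor of interleukin 9, measured 29.4, 15.4 and 6.78 FPKM in WT replicates 1, 2 and 3 and 8.95, 16.4 and 8.71 FPKM in CD40LΔ5 replicates 1, 2 and 3. For Hes1 the nearest genes were Epn1, Ndst2 and Bcl3 (0.988, 0.983 and 0.980), for Hes5 Nmt1, Vac14 and Mtmr12 (0.986, 0.974 and 0.972), for Myof Vps35, Pole4 and Acbd5 (0.962, 0.959 and 0.928), and for Rasgef1b Med15, Sash3 and Phf14 (0.992, 0.977 and 0.976). All r are over the same 6 libraries, whose immunoglobulin shares differ as given above, and they stand without a test.

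The rest of the Notch pathway was followed in fixed lists of genes. Of 14 genes that cut or glycosylate the receptor 13 were tested, and of 14 in the nuclear complex all were. None of either list passed the limma test under either grouping. Adam10, the protease of the first cut after ligand binding, averaged 39.8 FPKM, and Psenen, a γ-secretase subunit, 107 FPKM. Mfng, a fringe glycosyltransferase that tunes the response to Delta ligands, averaged 36.2 FPKM. In the first list 1 of 13 genes, Mfng, had an unadjusted p under 0.05 by the table sets, where 13.0% of all genes did. It averaged 38.8 FPKM in table-MUT and 33.7 FPKM in table-WT libraries. Its log2 difference was 0.20 ± 0.08 SE by the table sets (limma adjusted p = 0.363) and -0.03 ± 0.11 SE by the labels. The nuclear partner Rbpj averaged 8.21 FPKM, with a log2 difference of 0.05 ± 0.11 SE by the labels and 0.01 ± 0.11 SE by the table sets.

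In the nuclear list 11 of 14 genes had higher and 3 lower values by the labels, where 55.5% of all genes were higher. The median log2 difference of the list was 0.08 against 0.01 over all tested genes. Ep300, a histone acetyltransferase that joins the Notch complex, measured 26.9, 22.4 and 27.4 FPKM in WT and 31.7, 30.3 and 30.6 FPKM in CD40LΔ5, replicates 1, 2 and 3 in order (log2 difference 0.27 ± 0.10 SE, limma adjusted p = 1). Spen, a corepressor that competes with Notch for RBPJ and restrains marginal zone B cell formation, measured 9.11, 7.40 and 9.48 FPKM in WT and 10.8, 9.73 and 10.1 FPKM in CD40LΔ5 (0.22 ± 0.11 SE). The rows of Ep300 and Spen have lengths of 8738 and 12299 bases, and the length trend given beside Notch2 applies to them. Between the table sets this list had 4 higher and 10 lower values, where 62% of all genes were higher. Its median log2 difference there was -0.05 against 0.05 over all tested genes. Ep300 stood at -0.17 ± 0.12 SE and Spen at -0.20 ± 0.11 SE between the table sets.

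**Figure D3:**
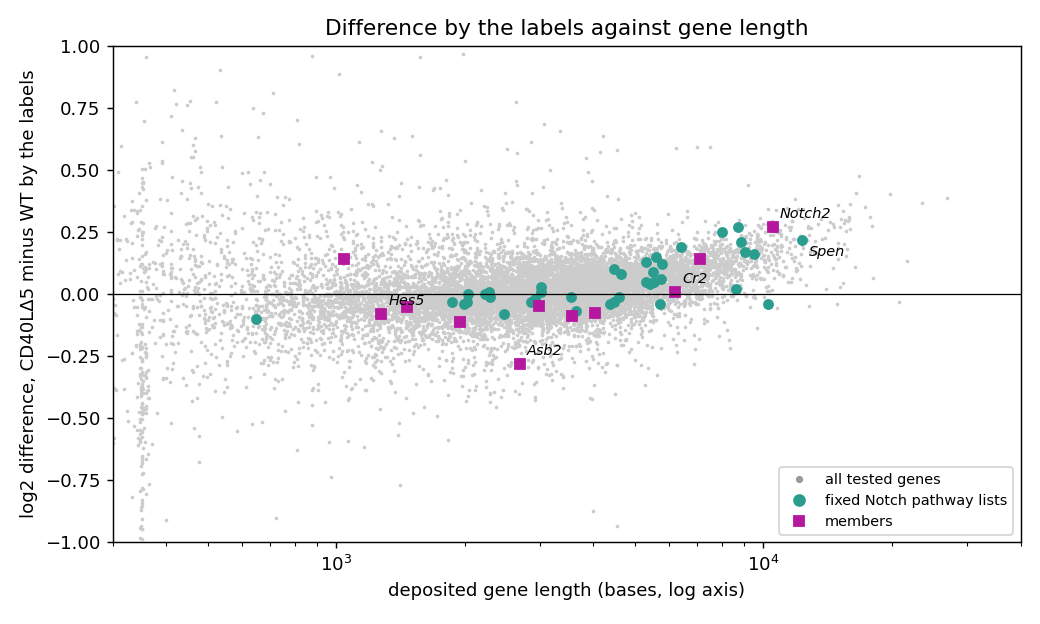
Log2 difference by the labels (CD40LΔ5 minus WT) against the deposited gene length (log axis) for 11052 tested genes in grey, with the tested genes of the fixed Notch pathway lists and the 11 member rows in colour; 200 tested genes lie outside the axes. Long genes lie mostly above 0, and Notch2 and Spen stand among them.

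Of 12 genes for the turnover and trafficking of Notch 10 were tested and none passed. Fbxw7, a ubiquitin ligase subunit that marks the Notch intracellular domain for destruction, averaged 10.3 FPKM in table-MUT and 12.6 FPKM in table-WT libraries (-0.28 ± 0.09 SE on the log2 scale, limma adjusted p = 0.352). In that list Fbxw7 was lower and Dtx4, a relative of Dtx1, higher (0.23 ± 0.12 SE) without overlap of the table sets, which 4.79% and 12.1% of all genes were. By the labels the log2 differences were -0.03 ± 0.14 SE for Fbxw7 and 0.06 ± 0.16 SE for Dtx4. Of the 10 genes listed as other possible targets 4 reached the level for testing. Nrarp, a feedback inhibitor of Notch, measured 1.93, 1.03 and 1.73 FPKM in WT and 1.95, 1.34 and 1.54 FPKM in CD40LΔ5, replicates 1, 2 and 3 in order. Its log2 difference was 0.04 ± 0.19 SE by the labels and -0.18 ± 0.16 SE by the table sets. Hes6, Myc and Il2ra averaged 34.6, 30.2 and 1.09 FPKM, with log2 differences of 0.01, -0.08 and 0.01 by the labels. Hey1, Hey2 and Heyl, targets used in blood vessels and heart, averaged 0.0604, 0.0319 and 0.0587 FPKM.

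Among other genes of marginal zone B cells none passed the limma test under either grouping. Of 14 listed genes 13 were tested. By the labels 6 had higher and 7 lower values (median log2 difference -0.03), where 55.5% of all genes were higher. None of the 13 had an unadjusted p under 0.05, where 1.24% of all genes did. Between the table sets 8 had higher and 5 lower values, where 62% of all genes were higher (median 0.16 against 0.05 over all tested genes). There 4 higher and 1 lower of the 13 genes had an unadjusted p under 0.05, where 9.39% and 3.61% of all genes did. The smallest limma adjusted p was 0.343. Cd9, a tetraspanin of marginal zone and B1 cells, measured 20.4, 20.5 and 8.91 FPKM in WT replicates 1, 2 and 3 and 9.50, 15.4 and 14.7 FPKM in CD40LΔ5 replicates 1, 2 and 3. Plxnd1, a semaphorin receptor, measured 8.13, 6.98 and 2.69 FPKM in WT and 3.09, 5.60 and 5.32 FPKM in CD40LΔ5 in the same order. Both were lowest in WT replicate 3 and CD40LΔ5 replicate 1, and CD40LΔ5 replicate 3 lay just under CD40LΔ5 replicate 2. The other higher genes were Tlr3, a receptor for double-stranded RNA (log2 difference 0.44 ± 0.12 SE), and Ackr3, a scavenging chemokine receptor (0.57 ± 0.18 SE), the latter named after its values were seen. Pik3cg, a phosphoinositide 3-kinase subunit, was the lower one (-0.33 ± 0.10 SE). By the labels the log2 differences were -0.03 for Tlr3, -0.28 for Ackr3 and 0.09 for Pik3cg. Mzb1, which marginal zone B cells share with plasma cells, ran from 374 to 1106 FPKM.

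**Figure D4:**
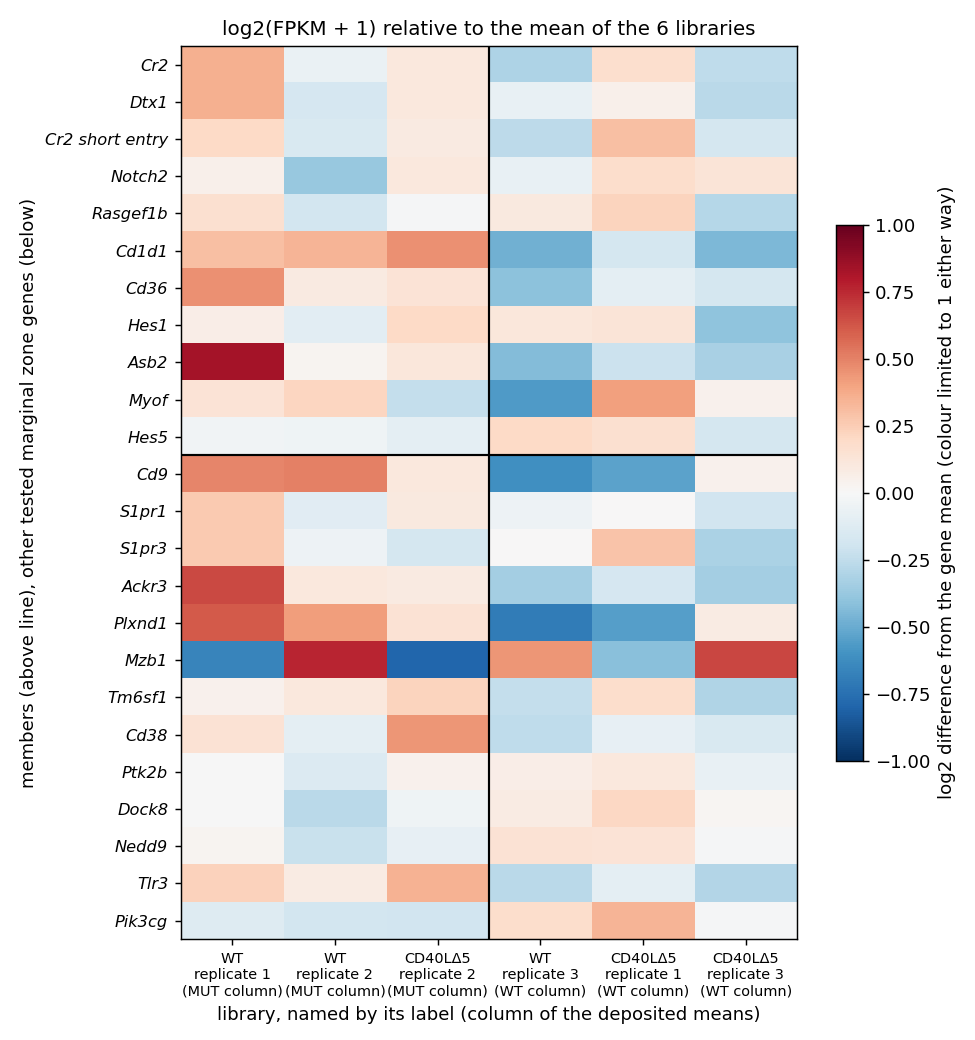
Log2(FPKM + 1) of the 11 member rows (above the line) and of the 13 tested other marginal zone genes (below) relative to each gene's mean over the 6 libraries, with the libraries ordered by the column of the deposited means. Cd1d1, Cd36 and Tlr3 are red in the left 3 columns and blue in the right 3, while Notch2, Myof and Mzb1 vary within both sets.

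Follicular B cell genes differed little. The 7 tested genes of the list had a median log2 difference of 0.05 by the labels and 0.04 by the table sets, and none had an unadjusted p under 0.05 in either. Fcer2a, the low-affinity IgE receptor CD23 that is high on follicular and low on marginal zone B cells, lay between 308.5 and 383 FPKM. Of the 12 regulators of the choice between these fates, Id2, an inhibitor of E proteins, had lower values in each library labelled CD40LΔ5 than in each labelled WT (unadjusted p = 0.0212, limma adjusted p = 1), 1 of 12 genes where 1.32% of all genes were lower without overlap. Mef2c, at 70.8 FPKM in table-MUT and 85.3 FPKM in table-WT libraries, and Bcl6, at 24.9 and 34.9 FPKM, had an unadjusted p under 0.05, 2 of 12 genes where 13.0% of all genes did. Their limma adjusted p was 0.353 and 0.367. By the labels the log2 differences of Mef2c and Bcl6 were 0.14 and -0.08, and by the table sets that of Id2 was 0.12. Bcl6 also belongs to the germinal centre list.

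Summed markers of other cell types are given by the table sets, and their part in the differences of Cd1d1, Cd36 and Asb2 was not tested. No gene of these lists passed the limma test, with a smallest adjusted p of 0.0677 in the natural killer cell list, and the macrophage, erythroid, T cell, neutrophil and dendritic cell sums overlapped between the sets. The 11 macrophage genes found, with Hmox1, C1qa and C1qb the most abundant, summed to 279, 128 and 111 FPKM in WT replicates 1 and 2 and CD40LΔ5 replicate 2, averaged as MUT, and to 72.1, 91.7 and 117 FPKM in WT replicate 3 and CD40LΔ5 replicates 1 and 3, averaged as WT. The sum was by far the highest in WT replicate 1, where Cd36, Asb2, Cr2 and Dtx1 were highest too. The marginal zone macrophage markers Marco and Cd209b averaged 1.31 and 0.0322 FPKM. The 6 natural killer cell genes summed to 50.2, 44.7 and 55.7 FPKM in the first set and to 27.9, 21.5 and 32.8 FPKM in the second, so these sums did not overlap, as for Cd1d1. The 7 erythroid genes found (1019, 814 and 1011 against 623, 313 and 1180 FPKM) and the 6 platelet genes (11.7, 9.20 and 10.3 against 8.94, 7.98 and 8.62 FPKM) stand for cells that carry Cd36. The platelet sums did not overlap between the sets, but both tested genes of that list, Itgb3 and Pf4, did overlap. Itgb3, the most abundant platelet gene, averaged 5.25 FPKM. Pf4 measured 1.94, 1.82 and 1.51 against 1.05, 0.754 and 1.59 FPKM. T cell genes, 8 in number, summed to 48.1, 51.1 and 48.3 against 41.8, 49.5 and 38.8 FPKM. Lck, the most abundant of them at 25.2 FPKM on average, had a log2 difference of 0.01 ± 0.12 SE. All 7 tested T cell genes had higher values in the table-MUT libraries, where 62% of all genes did. For 5 of the 7 the sets did not overlap, where 12.1% of all genes were higher without overlap. The 8 neutrophil genes summed to 72.5, 67.4 and 77.4 against 307, 43.2 and 559.6 FPKM. The 8 dendritic cell genes, a cell type that also uses Notch2, summed to between 4.61 and 12.7 FPKM.

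Genes of other B cell states were on balance higher in the table-WT libraries, again without a call. The 10 germinal centre genes summed to 47.5, 151 and 64.7 against 190.5, 201 and 114 FPKM, in the same order of libraries. In that order Cd1d1 measured 31.9, 32.8 and 35.6 against 18.1, 22.6 and 18.5 FPKM, and its relation to the germinal centre sum was not tested. The 7 plasma cell genes found, with Igj the largest, summed to 951, 3925 and 766 against 3901, 1612 and 3832 FPKM. With libraries scaled by median ratios, the log2 difference of Cd1d1 by the table sets was 0.69 and that of Notch2 by the labels 0.24.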

How the data were processed

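RNA was measured in 6 libraries of splenic B cells, with groups taken from the sample titles. FPKM is the unit of 2 equal tables of single libraries and of a table of means, all deposited by the authors. CASAVA 1.8.2, STAR, DESeq2 and the build mm9 are named, without roles, per the submitters' processing notes. For the counting tool and the annotation release, the name is not given in the sources used here. Gene coordinates in the files are those of GRCm38, since 24932 of 34490 listed genes found in GENCODE M21 have its start and end, and they are printed as the files give them. Gene lengths are a deposited column, and FPKM times length gave whole reads for 100% of the values above 0 (tolerance 0.01 reads). At a length of 1 kb, 1 read is worth 0.0359 to 0.0411 FPKM, so low genes such as Hes5 are the least precise. The TruSeq RNA kit named in the labels' protocols does not mark the strand, so reads of overlapping genes cannot be told apart by their strand.

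limma 3.58.1 in R 4.3.3 (lmFit, eBayes with a trend) was fitted on log2(FPKM + 1) to the 11252 genes averaging 1 FPKM or more, two-sided, with Benjamini-Hochberg adjustment over all of them and a threshold of 0.05. Log2 differences are on that scale, on which changes of low genes are understated. The procedure was tested on simulated data. Alternatives were other pseudocounts, filters and scalings, array weights, no trend, voom on recovered reads, the replicate block and leaving out each library. All 10 genes entered the fit, so the exact permutation test foreseen for members under that level gave no value. Genes of like pattern are the 3 with the highest Pearson r of log2(FPKM + 1) among genes averaging 5 FPKM or more, without predicted genes, pseudogenes and immunoglobulin segments. From the lists, the up to 4 genes of smallest unadjusted p in either grouping and abundant genes are named, except genes that are not reported here. The members and lists were chosen with earlier results of these data known. Removal of the gene length trend (loess, span 0.3) and the second Cr2 row were added after seeing the data.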

Additional observations from a re-analysis of the deposited data

How the results depend on the processing

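By the labels 0 genes were called under each alternative run, voom and the replicate block included, and no member passed in any of them. By the table sets 3 genes were called in the comparison as reported, 5 with a pseudocount of 0.1 FPKM, 1 without a filter, 0 with a mean of at least 5 FPKM, 11 with array weights and 1 with voom, and 1 to 16 when 1 library was left out (13 without WT replicate 2, 16 without CD40LΔ5 replicate 1 and 1 without CD40LΔ5 replicate 2). The cause was not tested. No member was called there except Cd1d1, with array weights (log2 difference 0.82) and without CD40LΔ5 replicate 1 (0.83).

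Small differences changed sign. By the labels Cr2 was -0.00 with upper-quartile scaling, -0.02 with median-ratio scaling and -0.06 without the length trend, and Hes1, Hes5 and Rasgef1b were 0.04, 0.03 and 0.07 with array weights. By the table sets Notch2 was 0.00 with array weights, and without the length trend Hes1 was -0.00 and the short Cr2 row -0.05. When 1 library was left out, the log2 differences by the labels ranged from -0.14 to 0.19 for Cr2, -0.38 to 0.09 for Cd1d1, -0.18 to 0.08 for Dtx1, -0.11 to 0.30 for Myof, -0.16 to 0.14 for Hes1, -0.57 to 0.06 for Asb2, -0.31 to 0.12 for Cd36 and -0.17 to 0.08 for Rasgef1b. By the labels they stayed above 0 for Notch2 (0.15 to 0.36) and the short Cr2 row (0.03 to 0.27), and ran from -0.18 to -0.00 for Hes5. By the table sets they ranged from -0.02 to 0.26 for the short Cr2 row, -0.19 to 0.30 for Myof, -0.24 to 0.00 for Notch2, -0.07 to 0.20 for Hes1 and -0.17 to 0.08 for Rasgef1b. There they stayed above 0 for Cd1d1 (0.68 to 0.83), Asb2 (0.39 to 0.79), Cd36 (0.34 to 0.52), Cr2 (0.15 to 0.41) and Dtx1 (0.07 to 0.33), and below 0 for Hes5 (-0.24 to -0.05).

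The titles number replicates 1 to 3 in both groups, but same-numbered libraries deviated together for replicate 3 and not for replicates 1 and 2 (r of -0.385, 0.0578 and 0.376 for replicates 1, 2 and 3 across genes), so the number was not taken as a pairing. With the replicate block 0 genes were called by the labels, and Notch2 had a log2 difference of 0.27. The 46 to 71 reads of Hes5 per library limit what can be seen of it.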
